A study of Mus musculus with 4 samples.

Results

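Gabra6, Cbln1, Cbln3, Neurod1, Zic1, Zic2, Barhl1, Barhl2, Grm4 and En2, 10 genes known from cerebellar granule cells, were followed across 4 RNA-seq libraries of ribosome-bound RNA from mouse brain. They were found by their symbols among the 55471 genes that each count table lists, and all 10 were present. The genes were chosen on these same libraries, because their levels stood far apart between the cuprizone libraries. Their levels and the differences between libraries are therefore a description, and no test was applied to them. The 4 libraries were 2 labelled cuprizone and 2 labelled mock. All came from mice labelled GFAP-Cre+/- Rpl22HA/wt, in which the GFAP promoter, active in astrocytes, drives the recombinase, and 1 allele of the ribosomal protein gene Rpl22 carries an HA tag used for the pull-down. The labels do not name the GFAP-Cre line. Cuprizone is a copper chelator that is fed to mice to strip myelin from the corpus callosum, and the series describes male mice of 8 to 9 weeks given 0.2% cuprizone in chow, with age-matched controls on normal chow. The sample labels give tissue as brain, cell type as astrocytes, 1 batch and a time of 3 weeks for all 4 libraries. The series text describes dissected corpus callosum and collection at 5, 5.5 and 7 weeks, a mismatch that was not settled. The labels call the libraries biological replicates without tying them to animals or stating whether animals were pooled, so a p-value below measures only the spread between these libraries.

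Granule cells are small excitatory neurons of the cerebellar cortex, which lies well away from the corpus callosum. They arise from precursors of the rhombic lip and send parallel fibres to Purkinje cells, where cerebellin released from the fibre helps to hold the synapse together and binds presynaptic neurexin. Mature granule cells are the main site of the GABA-A receptor subunit alpha6, and they are inhibited in turn by Golgi cells.

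The libraries held 21834814 and 23822620 counts in cuprizone and 22109536 and 21209517 counts in mock. Values are given as CPM, counts scaled to 1000000 counts of the library total, and 3 counts, the limit that a count of 0 allows, were 0.126 to 0.141 CPM. These limits, and the 95% exact intervals given for ratios, cover counting error only. The label of astrocytes was checked against marker lists. The 10 astrocyte markers summed to 4976 and 5503 CPM in cuprizone and 8316 and 7961 CPM in mock, with Gfap at 385 and 451 CPM in cuprizone and 963 and 870 CPM in mock. The 10 general neuronal markers, led by Snap25, summed to 15356 and 15320 CPM in cuprizone and 13048 and 13725 CPM in mock, so neuronal RNA was abundant in all 4 libraries. The neuronal sum was nearly equal in the cuprizone libraries, the pair between which the granule cell genes differed. Low-level markers of other cells did differ between this pair, the endothelial gene Kdr with 7 and 113 counts in cuprizone and 47 and 49 in mock. The choroid plexus genes did not share a direction. Ttr had 44 and 1165 counts in cuprizone and 2880 and 546 in mock, and Kl had 174 and 7 in cuprizone and 151 and 90 in mock. Of the 5 choroid plexus and ependymal genes with at least 1 CPM in either cuprizone library, 1 was at least 2-fold higher in replicate 2, against 11.6% of all genes. Another 2 were at least 2-fold lower, against 9.53% of all genes. The 5 endothelial markers summed to 0.412 and 7.05 CPM in cuprizone and 2.58 and 3.63 CPM in mock, and the part of these cells in the levels below was not tested. Rpl22 itself had 42.2 and 27.5 CPM in cuprizone and 40.6 and 40.1 CPM in mock. This bulk measure cannot tell fewer cells of a type from less RNA per cell.

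Of the 10 genes, 6 had a promoter window in the RefSeq-derived table (build GRCm38.p6). The windows of 3 are printed here because the RefSeq start coincides with the GENCODE M21 gene start and because Gabra6, Barhl1 and Barhl2 had no count in either mock library. Each holds the 250 bases upstream of the start on the minus strand, 5′ to 3′, for Gabra6 at chr11:42321073-42321322, Barhl1 at chr2:28916669-28916918 and Barhl2 at chr5:106458167-106458416, with motif matches in capitals.
Gabra6: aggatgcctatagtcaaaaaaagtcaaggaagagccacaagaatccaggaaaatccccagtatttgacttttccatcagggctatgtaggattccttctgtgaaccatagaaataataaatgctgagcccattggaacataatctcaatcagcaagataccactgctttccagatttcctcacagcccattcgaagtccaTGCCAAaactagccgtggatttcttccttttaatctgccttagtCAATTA
Barhl1: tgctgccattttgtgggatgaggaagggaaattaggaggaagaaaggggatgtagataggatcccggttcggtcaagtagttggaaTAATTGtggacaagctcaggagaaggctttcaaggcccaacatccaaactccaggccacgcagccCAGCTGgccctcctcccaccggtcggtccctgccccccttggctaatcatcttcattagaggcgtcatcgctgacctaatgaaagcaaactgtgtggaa
Barhl2: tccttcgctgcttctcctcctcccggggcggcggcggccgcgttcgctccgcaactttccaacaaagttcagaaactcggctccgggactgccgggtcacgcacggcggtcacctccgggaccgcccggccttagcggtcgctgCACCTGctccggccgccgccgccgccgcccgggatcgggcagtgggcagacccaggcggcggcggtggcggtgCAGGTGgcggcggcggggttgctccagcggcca
The motifs searched on both strands were the E-box CANNTG, which basic helix-loop-helix factors such as Neurod1 bind, its form CAGATG, the NFI half-site TTGGCA and the homeodomain core TAATTG, and no masking was applied where motifs overlapped. CANNTG was in 5 of the 6 windows and in 66.2% of all 32851 promoters in the table. TTGGCA was in the windows of Gabra6 and Cbln3, 2 of 6, against 12.3% of all promoters. TAATTG was in those of Gabra6 and Barhl1, 2 of 6, against 7.17%, and CAGATG was in 0 of 6, against 14.4%. The Gabra6 window, the only one of the 6 without CANNTG, carries the NFI half-site 50 bases and the homeodomain core 6 bases before the start. Its GC content was 40.8%, against 52.8% for Barhl1 and 74.8% for Barhl2. A match is a string of letters and no evidence of binding.

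Neurotransmitter receptor genes come first. Gabra6 (ENSMUSG00000020428, GRCm38 chr11:42306437-42321072), which encodes the alpha6 subunit, had 257 and 5109 counts in cuprizone and 0 in both mock libraries. That is 11.8 and 214 CPM in cuprizone replicates 1 and 2, so both cuprizone libraries stood clear of mock, and the second was 18.2-fold above the first (interval 16.1 to 20.7). The cuprizone mean was at least 816-fold higher than mock, taking mock at 3 counts per library. Grm4 (chr17:27422387-27521403), the metabotropic glutamate receptor that damps release at parallel fibre terminals, had 11.6 and 33.2 CPM in cuprizone and 4.48 and 7.21 CPM in mock. Its groups did not overlap, but it varied least of the 10 between the cuprizone libraries, by 2.85-fold (interval 2.48 to 3.30), and its cuprizone mean was 3.84-fold above mock.

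The secreted cerebellins differed from each other in mock. Cbln3 (chr14:55878913-55884392), whose product is known to leave the cell together with cerebellin 1, had 489 and 7882 counts in cuprizone and 0 in both mock libraries. These counts were 22.4 and 331 CPM in cuprizone, a 14.8-fold difference between the replicates (interval 13.5 to 16.2), and a mean at least 1275-fold higher than mock. Cbln1 (chr8:87468405-87472609), the organizer of the parallel fibre synapse, had 13.9 and 74.3 CPM in cuprizone and 5.34 and 3.63 CPM in mock. Cbln1 was thus present in every library, highest in cuprizone replicate 2, with a 5.33-fold difference between the cuprizone libraries (interval 4.72 to 6.04) and a cuprizone mean 9.83-fold above mock. The non-coding gene Gm2694 overlaps Cbln1 on the opposite strand and had 160 and 919 counts in cuprizone and 125 and 137 in mock. Whether counting used strand is not given in the sources used here, so reads of this pair cannot be told apart.

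Among the transcription factors, Neurod1 (chr2:79452521-79456751), a basic helix-loop-helix factor of granule cell differentiation that is also made in the dentate gyrus, had the highest level per kilobase of exonic length. It had 73.2 and 467 CPM in cuprizone and 38.3 and 29.9 CPM in mock, a 6.39-fold difference between the cuprizone libraries (interval 6.06 to 6.74). Cuprizone replicate 1 was 2.15-fold above the mock mean and replicate 2 was 13.7-fold above it. Cerkl overlaps Neurod1 on the same strand and had far fewer reads, 38 and 87 counts in cuprizone and 121 and 53 in mock.

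The zinc finger factors Zic1 and Zic2 mark granule cell precursors and their descendants, and are also made in dorsal midline tissue and meninges. Zic1 (chr9:91358058-91365810) had 8.47 and 67.4 CPM in cuprizone and 1.36 and 0.33 CPM in mock, with a 7.95-fold difference between the cuprizone libraries (interval 6.83 to 9.31). Zic2 (chr14:122475435-122479852) had 1.19 and 11.6 CPM in cuprizone and 0.678 and 0.377 CPM in mock, a 9.77-fold difference (interval 6.52 to 15.2). For both genes the first cuprizone library lay above both mock libraries, Zic1 by 10.1-fold over the mock mean and Zic2 by 2.26-fold. Zic4, which overlaps Zic1 on the opposite strand, had 1.33 and 8.31 CPM in cuprizone and 0.769 and 2.64 CPM in mock, so its first cuprizone library lay between the mock libraries.

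The homeobox genes Barhl1, Barhl2 and En2 had at most 9 counts in cuprizone replicate 1. Barhl2 (chr5:106452523-106458166), a relative of Barhl1, had 9 and 557 counts in cuprizone and 0 in both mock libraries. These were 0.412 and 23.4 CPM, a 56.7-fold difference between the cuprizone libraries that rests on 9 counts in the lower one (interval 29.7 to 125). Barhl1 (chr2:28907679-28916668), needed for granule cell migration and survival in mice, had 99 counts, 4.16 CPM, in cuprizone replicate 2, and 0 in cuprizone replicate 1 and both mock libraries. En2 (chr5:28165694-28172166), which patterns the midbrain and cerebellum, had 89 counts, 3.74 CPM, in cuprizone replicate 2 and 0 in the other 3 libraries. Replicate 2 was therefore at least 30.3-fold higher than replicate 1 for Barhl1 and at least 27.2-fold higher for En2, with replicate 1 taken at 3 counts.

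**Figure D1:**
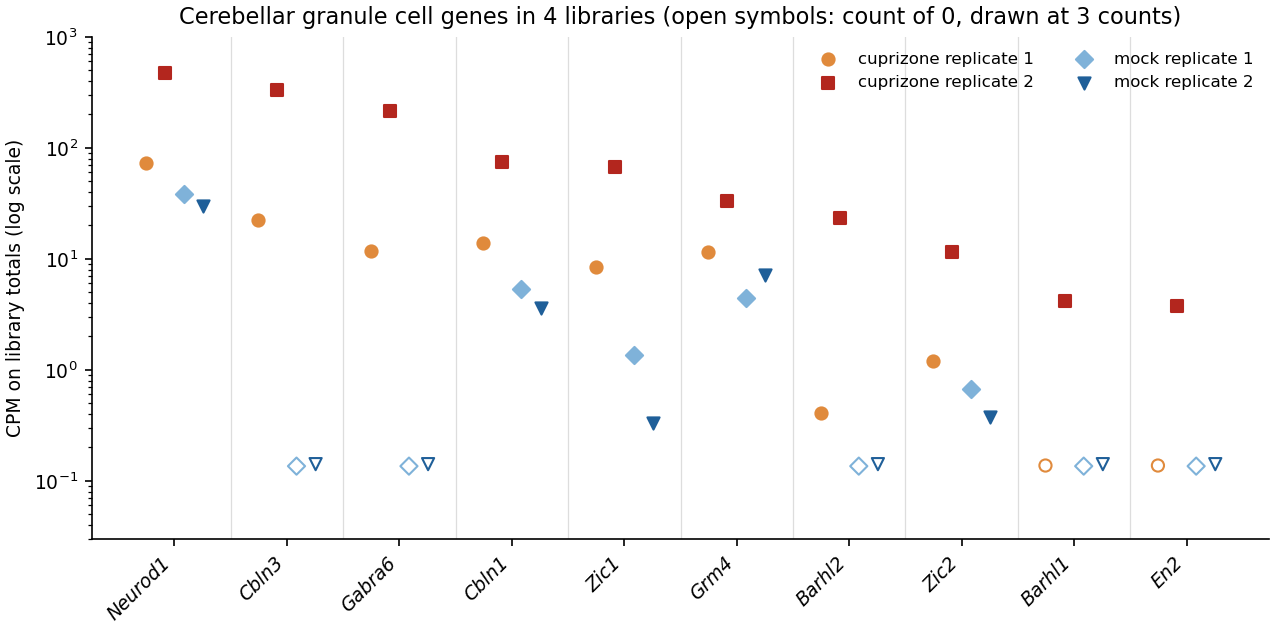
CPM of the 10 genes (log axis) in each of the 4 libraries, 1 symbol per library, with counts of 0 drawn as open symbols at the CPM of 3 counts. Cuprizone replicate 2 is the highest library for every gene, cuprizone replicate 1 lies between it and mock for 8 of the 10, and 5 genes have no count in either mock library.

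Each of the 10 genes was highest in cuprizone replicate 2, and 8 of 10 were also higher in cuprizone replicate 1 than in both mock libraries. The exceptions, Barhl1 and En2, tied with mock at 0. Over the 15816 genes that passed the filter on low counts, both cuprizone libraries lay above both mock libraries for 25.7%. The 10 genes were chosen on these same libraries, so nothing is read from the gap. Of the 10 genes, 7 passed that filter, and Barhl1, Barhl2 and En2 did not. The 5 genes with counts in mock, Neurod1, Cbln1, Grm4, Zic1 and Zic2, did not share a direction between the mock libraries. Grm4 was 1.61-fold higher in mock replicate 2 than in mock replicate 1, while the ratio was 0.781 for Neurod1, 0.680 for Cbln1, 0.556 for Zic2 and 0.243 for Zic1.

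Summed, the 10 genes made up 143 and 1231 CPM in cuprizone and 50.1 and 41.4 CPM in mock. The means were 687 ± 769 CPM in cuprizone and 45.8 ± 6.13 CPM in mock (SD, n = 2 each), so the spread within cuprizone was larger than the difference between the groups. The ratio of means was 15, but cuprizone replicate 1 alone stood 3.12-fold above the mock mean and replicate 2 stood 26.9-fold above it. The cuprizone libraries differed by 8.61-fold (interval 8.29 to 8.93), while mock replicate 2 was at 0.827 of replicate 1. The median of the 10 ratios between the cuprizone libraries was 12, higher than that of the sum. Neurod1, which weighs most, had a smaller ratio. Without Neurod1 the log2 ratio of the sum was 3.45, still under the 3.59 of the median.

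The ratios between the cuprizone libraries ran from 2.85 for Grm4 to 56.7 for Barhl2. With the mock mean subtracted from each cuprizone library, the 8 genes with a count in both cuprizone libraries still ran from 4.73-fold for Grm4 to 56.7-fold for Barhl2, with 7.39 for Cbln1, 8.72 for Zic1, 11.1 for Neurod1, 14.8 for Cbln3, 16.7 for Zic2 and 18.2 for Gabra6.

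Levels of different genes were compared per kilobase of exonic length. In cuprizone replicate 2 the order of the levels was Neurod1 at 171 CPM per kb, Gabra6 at 86.2, Cbln3 at 68.0, Cbln1 at 24.4, Zic1 at 11.8, Barhl2 at 10.1, Grm4 at 5.56, Zic2 at 4.04, and Barhl1 and En2 at 1.06 each. In mock, Neurod1 was again first at 14 and 10.9 CPM per kb, followed by Cbln1 at 1.76 and 1.20 and Grm4 at 0.749 and 1.21. Cbln1 and Grm4 overlapped there and hold no order. Zic1 had 0.238 and 0.058 CPM per kb in mock and Zic2 had 0.236 and 0.131, which also overlapped, and the other 5 genes were at 0.

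How far libraries of 1 group stand apart in general was read from every gene with at least 1 CPM in either library of the pair. Cuprizone replicate 2 was at least 2-fold above replicate 1 for 11.6% of 14967 genes and at least 2-fold below it for 9.53%. Mock replicate 2 was at least 2-fold above replicate 1 for 9.69% of 14762 genes and at least 2-fold below it for 8.51%. The 99th percentile of the log2 ratio was 4.13 in cuprizone and 3.65 in mock, so log2 ratios near 3.65 also occurred between the mock libraries. These percentiles pool genes of all levels from 1 CPM and were not matched to the levels of the 10 genes. All 10 granule cell genes were at least 2-fold above in cuprizone, which is what they were chosen for. In mock, 0 of the 4 with at least 1 CPM were at least 2-fold above and 1 of 4, Zic1, was at least 2-fold below. Among the 10916 genes with 5 CPM or more in cuprizone replicate 2, ordered by their ratio to replicate 1, Barhl2 came 9th, Gabra6 43rd, Cbln3 51st, Zic2 72nd, Zic1 82nd, Neurod1 106th, Cbln1 137th and Grm4 361st.

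**Figure D2:**
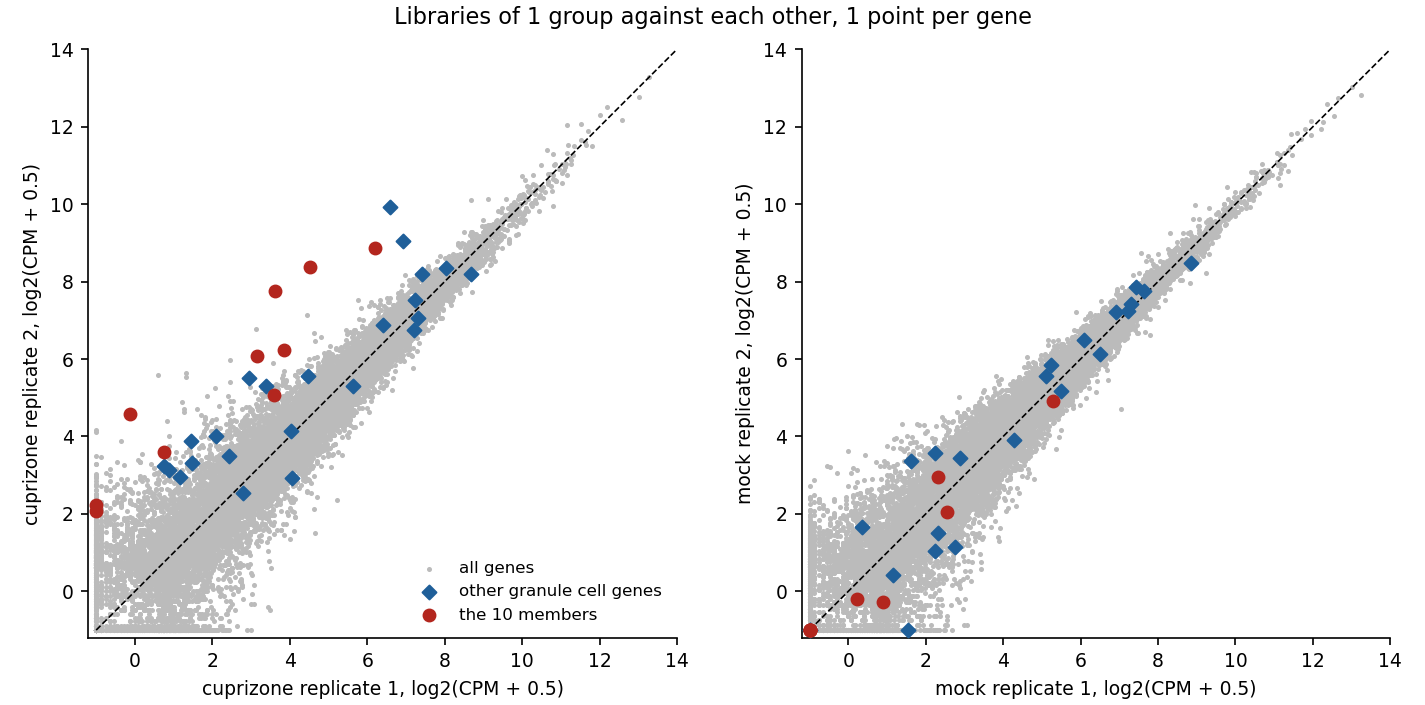
Log2(CPM + 0.5) in replicate 2 against replicate 1 of genes with at least 1 CPM in any library, for cuprizone on the left and mock on the right. The 10 genes are red circles, other granule cell genes blue diamonds and the remaining plotted genes grey, with the line of equal levels dashed. The red points lie above the line in cuprizone, and in mock 5 of them coincide at 0 CPM, while Zic1 lies at 0.243 of its level in replicate 1.

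The other granule cell genes were read from a list of 25 that includes further Zic genes, ion channels and transcription factors of the lineage. This list and the other gene lists were written with earlier results of these data known. Nothing is therefore read from their shares against those of all genes. Calb2 (calretinin) moved as the 10 genes did, with 95.2 and 981 CPM in cuprizone and 44.9 and 35.8 CPM in mock. Chn2, a Rac regulator, had 121 and 526 CPM in cuprizone and 67.4 and 89.8 CPM in mock. Etv1, a factor of granule cell maturation, had 170 and 292 CPM in cuprizone and 150 and 151 CPM in mock. In these 3 genes both cuprizone libraries lay above both mock libraries and replicate 2 was the highest.

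Neurod6 and Neurod2, which are broadly expressed in the forebrain, overlapped between the groups. Neurod6 had 412 and 294 CPM in cuprizone and 465 and 359 CPM in mock, and Neurod2 had 151 and 184 CPM in cuprizone and 156 and 170 CPM in mock. Nfix, an NFI factor, had 5707 and 7793 counts in cuprizone and 4423 and 4594 counts in mock, a smaller gap, again without overlap and with cuprizone replicate 2 highest. Of the less abundant genes, Uncx had 2.24 and 14.2 CPM in cuprizone and Fat2, the giant cadherin of granule cells, had 1.74 and 7.30 CPM, with 0 counts of either in both mock libraries. Meis1 had 7.19 and 45.4 CPM in cuprizone and 4.25 and 11.3 CPM in mock, so its first cuprizone library lay between the mock libraries. Atoh1, the factor of granule cell precursors in the embryo and young pup, and Tlx3 had no count in any library.

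By edgeR's quasi-likelihood test with Benjamini-Hochberg adjustment over all 15816 genes tested, 0 of the 23 other granule cell genes that passed the filter were called between cuprizone and mock, where 13 genes in all, 0.0822%, were called. At an unadjusted p under 0.05, 6 were higher in cuprizone (Fat2, Uncx, Reln, Calb2, Chn2 and Nfix), against 5.73% of all genes. Only 1, the vesicular glutamate transporter gene Slc17a7, was lower, against 7.03% of all genes. DESeq2 called 4 of the 23, Reln, Uncx and Fat2 higher and Slc17a7 lower, where it called 4.55% of all genes. A fit without 1 cuprizone library leaves 1 library in that group, so nothing is read from its calls for this list. The median log2 fold change of the 23 was 0.55 and that of all genes tested was 0.00; Uncx and Fat2, with no mock count, lie above the median at any bound. Both cuprizone libraries lay above both mock libraries for 10 of the 23, against 25.7% of all genes. As the list was written with earlier results known, nothing is read from these shares. Calb2 had a log2 fold change of 3.68 ± 0.98 (SE), with an unadjusted p of 0.00872 and an adjusted p of 0.237 in edgeR, and was higher in 2 of 2 cuprizone libraries. The adjusted p of the 6 genes ran from 0.161 for Uncx to 0.379 for Nfix.

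Between the cuprizone libraries, 12 of the 23 other granule cell genes with at least 1 CPM were at least 2-fold higher in replicate 2, against 11.6% of all genes, and 1, the potassium channel gene Kcnk9, was at least 2-fold lower. The list was written with earlier results of these data known, so nothing is read from the gap. Between the mock libraries 3 of 21 were at least 2-fold higher in replicate 2 and 4 were at least 2-fold lower. The median log2 ratio of the list was 1.11 in cuprizone and 0.11 in mock. The list summed to 1744 and 3236 CPM in cuprizone and 1590 and 1633 CPM in mock, and Calb2 and Chn2 carried most of the gap.

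Markers of the other cells of the cerebellum were read from lists for Purkinje cells, for interneurons with unipolar brush cells, and for Bergmann glia. The 14 Purkinje genes summed to 861 and 742 CPM in cuprizone and 790 and 739 CPM in mock, so the sum did not move with the granule cell genes. It was carried by genes that other neurons also make, Calb1 at 528 and 413 CPM in cuprizone and 567 and 405 CPM in mock, and Itpr1 at 199 and 167 CPM in cuprizone and 92.0 and 180 CPM in mock. Rgs8, a regulator of G protein signalling, had 43.1 and 58.2 CPM in cuprizone and 41.0 and 47.1 CPM in mock. Pcp4, Car8 and Homer3 stayed under 40 CPM in every library and overlapped between the groups or, for Pcp4, were lower in both cuprizone libraries.

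Of the 13 Purkinje genes with at least 1 CPM in either cuprizone library, 4 were at least 2-fold higher in replicate 2 than in replicate 1, against 11.6% of all genes, and 1, Foxp2, was at least 2-fold lower, against 9.53%. The 4 had at most 11 counts in any of the other 3 libraries. Pcp2, a classical Purkinje marker, had 1 and 48 counts in cuprizone and 0 in both mock libraries. The LIM homeobox gene Lhx1 had 0 and 398 counts in cuprizone and 0 in both mock libraries, and Lhx5 had 0 and 32 counts in cuprizone and 0 in both mock libraries. Ppp1r17 had 0 and 46 counts in cuprizone and 11 and 0 in mock. Foxp2 had 402 and 201 counts in cuprizone and 211 and 117 in mock. Slc1a6, the glutamate transporter gene of Purkinje cells, had 64 and 49 counts in cuprizone and 89 and 125 in mock, and Skor2 had none in any library.

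Of the interneuron and unipolar brush cell genes, Tfap2b, a factor of the GABAergic lineage, had 0 and 415 counts in cuprizone and 0 in both mock libraries. Slc6a5, the glycine transporter gene of Golgi cells, had 0 and 24 counts in cuprizone and 0 in both mock libraries. Prkcd had 9.48 and 32.6 CPM in cuprizone and 6.83 and 2.36 CPM in mock. Grm2 had 23.9 and 12.2 CPM in cuprizone and 26.8 and 48.8 CPM in mock, and Kit had 13.3 and 31.9 CPM in cuprizone and 31.1 and 32.7 CPM in mock. Sorcs3 and Lypd6 were at 11.5 to 35 CPM in all libraries, and Eomes had 21 and 7 counts in cuprizone and 0 and 9 in mock.

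The 8 Bergmann glia genes summed to 1363 and 2002 CPM in cuprizone and 2042 and 1941 CPM in mock. Between the cuprizone libraries 3 were at least 2-fold higher in replicate 2, against 11.6% of all genes, and 1 was at least 2-fold lower, against 9.53%. Gdf10 had 5.18 and 23.9 CPM in cuprizone and 2.67 and 8.35 CPM in mock. A2m had 9 and 138 counts in cuprizone and 137 and 16 in mock. Sept4 had 557 and 1118 CPM in cuprizone and 556 and 578 CPM in mock, so only cuprizone replicate 2 stood apart. The glutamate transporter gene Slc1a3, made by all astrocytes, had 523 and 592 CPM in cuprizone and 899 and 867 CPM in mock. Gria1 and Fabp7 were likewise lower in both cuprizone libraries, Gria1 at 192 and 152 CPM in cuprizone and 439 and 346 CPM in mock, Fabp7 at 58.8 and 66.1 CPM in cuprizone and 109 and 98.6 CPM in mock. Gria4 overlapped between the groups. Over the 26 genes tested in the 3 lists together, edgeR called 0. At an unadjusted p under 0.05, 1 was higher (Prkcd), against 5.73% of all genes, and 5 were lower in cuprizone, Gria1, Fabp7, Slc1a3, Lypd6 and Grm2, against 7.03%. DESeq2 called 4, Prkcd higher and Gria1, Fabp7 and Slc1a3 lower, against 4.55% of all genes. Tfap2b and Lhx1, with counts only in cuprizone replicate 2, did not pass the filter and were not tested.

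**Figure D3:**
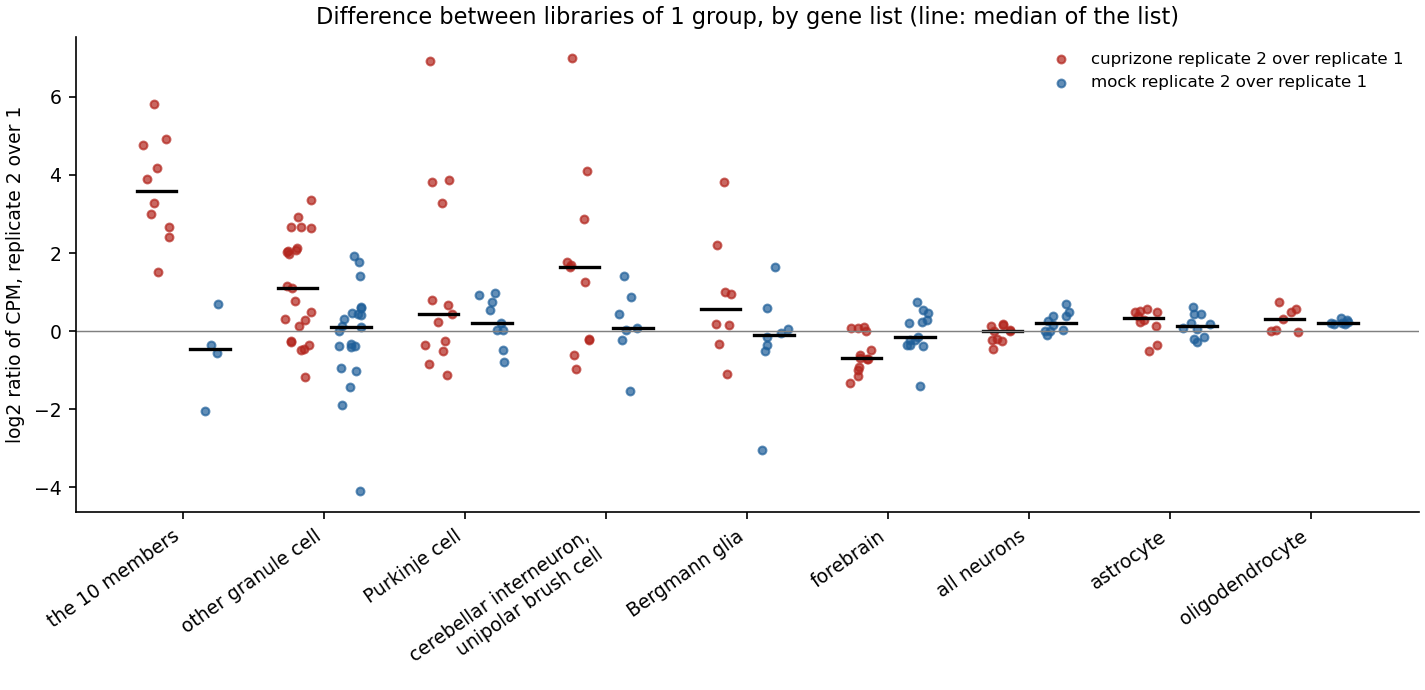
Log2 ratio of replicate 2 over replicate 1 per gene, for cuprizone (red) and mock (blue), by gene list, for genes with at least 1 CPM in either library of the pair, with the median of each list as a line. The median is 3.59 for the 10 genes and 1.11 for the other granule cell genes in cuprizone, and the general neuronal list sits at 0.01.

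Marker lists of neighbouring regions were set beside these values, without a test of their part in them. Of 16 midbrain and hindbrain genes, 10 had no count in any library, and the list summed to 0.779 and 4.66 CPM in cuprizone and 2.76 and 0 CPM in mock. Tph2, with 6 and 15 counts in cuprizone and 57 and 0 in mock, carried most of the mock sum. Only 2 genes had at least 1 CPM in either cuprizone library, and both were at least 2-fold higher in replicate 2, against 11.6% of all genes. Irx1 had 9 and 25 counts and Irx2 had 0 and 58 counts in cuprizone, with 0 of either in both mock libraries. The 14 forebrain genes summed to 1017 and 790 CPM in cuprizone and 978 and 916 CPM in mock, so cuprizone replicate 2 was the lowest library for them. The 6 dentate gyrus genes, from a region that also expresses Neurod1, summed to 130 and 121 CPM in cuprizone and 148 and 150.1 CPM in mock. Of the 9 thalamic genes, 6 had at least 1 CPM in either cuprizone library, and only Calb2 and Prkcd, which the cerebellar lists also hold, were at least 2-fold higher in cuprizone replicate 2 than in replicate 1. Tcf7l2, a transcription factor gene of thalamic neurons, had 62.2 and 80.1 CPM in cuprizone and 65.7 and 66.8 CPM in mock.

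The partners of the 10 genes in their receptor and synapse families were read in the same way. Of 12 other GABA-A receptor subunit genes, 0 were called by edgeR, and 7 were lower and 0 higher in cuprizone at an unadjusted p under 0.05, against 7.03% lower and 5.73% higher of all genes. DESeq2 called 4, all lower, against 4.55% of all genes. All 12 had a negative log2 fold change, with a median of -0.66. Only Gabrd, whose delta subunit pairs with alpha6 in granule cells, was at least 2-fold higher in cuprizone replicate 2 than in replicate 1, at 21.7 and 46.8 CPM in cuprizone and 34.2 and 47.1 CPM in mock.

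For the cerebellin family and its partners, the median log2 fold change of the 9 genes was -0.28, edgeR and DESeq2 each called 0, and 0 were higher and 2 lower (Grid1 and Nrxn2) at an unadjusted p under 0.05 in edgeR, against 5.73% higher and 7.03% lower of all genes. Nrxn3, which encodes a neurexin, was 2.11-fold higher in cuprizone replicate 2 than in replicate 1, at 77.2 and 163 CPM in cuprizone and 97.1 and 107 CPM in mock. Cbln2 had 86.5 and 66.8 CPM in cuprizone and 38.3 and 87.9 CPM in mock, and Cbln4 had 19.6 and 16.9 CPM in cuprizone and 26.9 and 13.4 CPM in mock. Neither forebrain cerebellin separated the groups.

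The genes whose profile over the 4 libraries lay nearest to that of the 10 summed genes were taken from 15815 others, by the root mean square distance of centred log2(CPM + 0.5). Calb2 was nearest at 0.16, followed by Cnpy1 at 0.29, Spag16 at 0.31, Bcl2l15 at 0.35, Uncx at 0.35, Nhlh2 at 0.36, Aqp6 at 0.40, Gprc5c at 0.46, Fat2 at 0.47 and Spin4 at 0.50. Calb2, Uncx and Fat2 are on the granule cell list. Cnpy1 had 1.28 and 20.7 CPM in cuprizone and 0 in both mock libraries, and Nhlh2, a basic helix-loop-helix gene, had 2.02 and 11.7 CPM in cuprizone and 0.181 and 0.283 CPM in mock. The distance rests on 4 libraries, and with a pattern set mainly by 1 library, genes of any kind can fall near it.

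The 15 genes with the largest ratio of cuprizone replicate 2 over replicate 1, among the 10916 with at least 5 CPM in replicate 2, shared 1 gene with the 10. Many had no count in replicate 1, which was taken at 3 counts, so their ratios are lower bounds and their order is not exact. Tfap2b and Lhx1, at 0 in the other 3 libraries, headed the set, and the 1 granule cell gene was Barhl2. Pax3 had 0 and 169 counts in cuprizone and 0 in both mock libraries. The other 11 were Rec8, Galnt15, Il20rb, Calcrl, Tmem51, Shc1, Lyn, Unc13d, Nsl1, Asgr1 and Cyp27a1, and all of these had counts in at least 1 mock library. Calcrl, the calcitonin receptor-like gene, had 0 and 220 counts in cuprizone and 119 and 101 in mock, so its low library was cuprizone replicate 1.

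**Figure D4:**
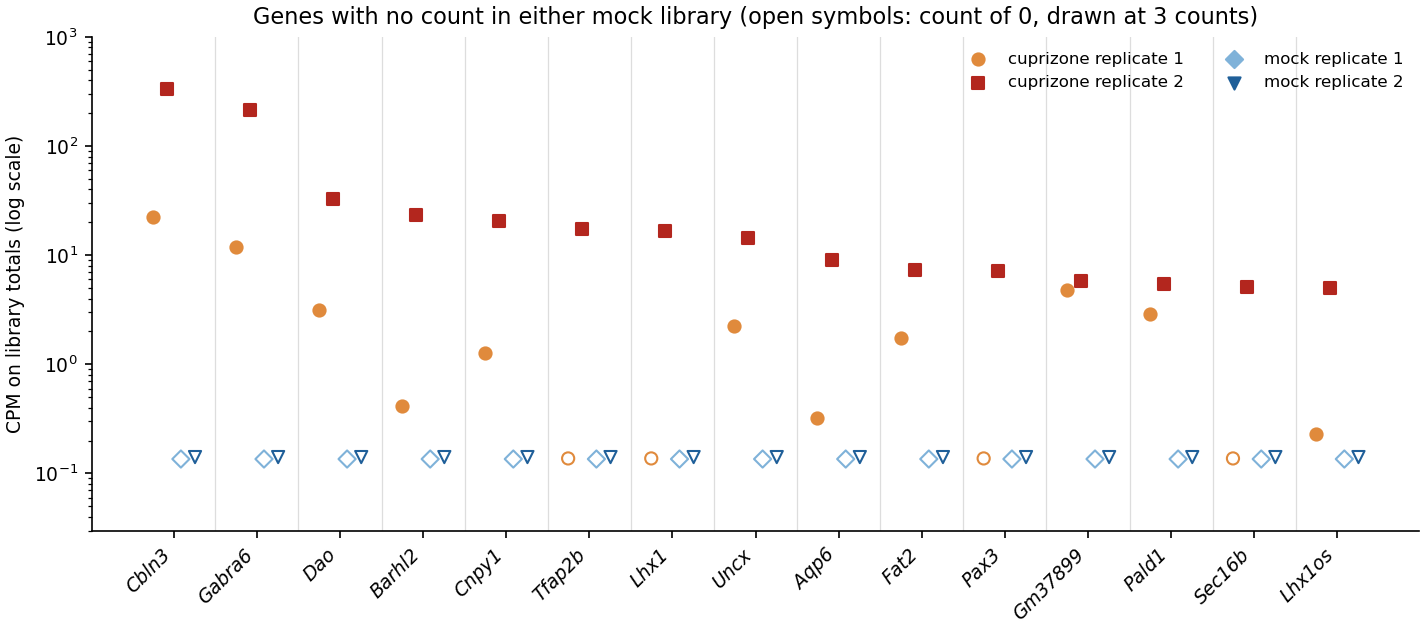
CPM (log axis) in each library of the 15 genes with at least 5 CPM in cuprizone replicate 2 and no count in either mock library, with counts of 0 drawn as open symbols at the CPM of 3 counts. Cbln3 and Gabra6 reach 331 and 214 CPM in cuprizone replicate 2, and 11 of the 15 had a count in cuprizone replicate 1.

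Presence against absence was also counted, a count chosen after its values were seen. Of the 10916 genes with at least 5 CPM in cuprizone replicate 2, 15 had no count in either mock library. They were Cbln3, Gabra6, Barhl2, Dao, Cnpy1, Tfap2b, Lhx1, Lhx1os, Uncx, Aqp6, Fat2, Pax3, Gm37899, Pald1 and Sec16b. Of these, 3 are among the 10 genes, Uncx and Fat2 are on the granule cell list, Lhx1 is on the Purkinje list and Tfap2b on the interneuron list. Dao, the D-amino acid oxidase gene known from cerebellar astrocytes, had 3.11 and 32.8 CPM in cuprizone. In cuprizone replicate 1 the same count gave Cbln3 and Gabra6 only, of 10883 genes. The reverse, at least 5 CPM in a mock library and no count in either cuprizone library, gave Gm20083 in mock replicate 1 and Ifi47 in mock replicate 2.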

How the data were processed

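Polyadenylated RNA bound to HA-tagged ribosomes was sequenced after a low-input library preparation, from RNA with an integrity number over 8 per the labels' protocols. The authors deposited raw counts per Ensembl gene, 1 table per library, not normalized, with no row for unassigned reads. Per the submitters' processing notes, FastQC 0.11.9, STAR 2.5.4b and featureCounts 1.6.0 were used with build GRCm38 (mm10). How multi-mapping reads were handled, the strand setting and the annotation release are details not given in the sources used here. Symbols, coordinates and exonic lengths were added from GENCODE M21 (55144 of 55471 genes matched), and promoter sequences from RefSeq.

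CPM was computed on library totals. Library depth was 21834814 to 23822620 counts. Counts under 3 were set to 3 in ratios, and intervals are exact at 95%. The 4 libraries were fitted with R 4.3.3, edgeR 4.0.16 (limma 3.58.1; filterByExpr, TMM, robust quasi-likelihood, 2-sided, Benjamini-Hochberg, threshold 0.05) by group without a replicate term. DESeq2 1.42.0 was an alternative, beside other scaling, no filter, the other quasi-likelihood estimation, a replicate block and leaving out each library. The edgeR step was tested on simulated data.

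The 10 genes and all marker lists were chosen with earlier results of these data known. Besides the 10 genes, the text names up to 6 genes per list by highest mean CPM among those with at least 5 CPM in any library, called genes, the 10 most alike, the 15 that differ most between the cuprizone libraries, overlapping neighbours, Gfap, Aqp4, Slc1a2 and Rpl22; other genes were named after their values were seen, and a few list genes are not reported here. Of the astrocyte genes, Aqp4 had 102 and 143 CPM in cuprizone and 117 and 179 CPM in mock, and Slc1a2 had 613 and 433 CPM in cuprizone and 1360 and 1836 CPM in mock. Marker lists for astrocytes, oligodendrocytes, microglia, endothelium, choroid plexus with ependyma, and meningeal fibroblasts had 0 edgeR calls each. At an unadjusted p under 0.05, 5 of 10 astrocyte, 4 of 7 oligodendrocyte and 2 of 6 microglial genes were lower in cuprizone, against 7.03% of all genes, and 0 were higher; none of the other 3 lists had any. DESeq2 called 4 astrocyte genes (Aldoc, Gfap, S100b and Slc1a2), 1 oligodendrocyte and 2 microglial genes, all lower, against 4.55% of all genes. The lists after astrocytes summed, in that order, to 9300 and 12357, 20.0 and 16.8, 0.412 and 7.05, 25.8 and 61.8, and 7.24 and 2.06 CPM in cuprizone, and to 12202 and 14167, 21.5 and 27.4, 2.58 and 3.63, 145.6 and 39.0, and 25.3 and 8.53 CPM in mock.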

Additional observations from a re-analysis of the deposited data

How the results depend on the processing

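The number of genes called between cuprizone and mock, 13 by edgeR, was 13 with RLE size factors, 10 with the replicate block, 51 with the other quasi-likelihood estimation, 191 without the filter on low counts and 720 with DESeq2. Leaving out 1 library at a time gave 5 to 123 calls: 123 without cuprizone replicate 1, 26 without cuprizone replicate 2, and 5 when the first or the second mock library was left out. In each such fit the lone library of a group is assumed to vary like the others. Calls among the other granule cell genes, 0 by edgeR, were 2 without the filter (Uncx and Fat2), 4 with DESeq2 and 0 to 3 with 1 library left out, the 3 being Uncx, Chn2 and Calb2 without cuprizone replicate 1. Calls among the other cerebellar genes, 0 by edgeR, were 1 without the filter (Gria1) and 4 with DESeq2. A fit with 1 library left out leaves 1 library in a group, so nothing is read from its calls in either list. Such calls among the other cerebellar genes are not counted here, though they also moved without cuprizone replicate 1. The cause of these shifts was not tested. The replicate block left both at 0. Replicate numbers share no stated animal or litter, and over 15816 genes the difference between replicates 1 and 2 correlated at 0.002 between cuprizone and mock, so the numbers were not taken to pair the libraries.

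The log2 ratio of the 10 summed genes between the cuprizone libraries, 3.11, was 3.12 on TMM and 3.11 on RLE library sizes, 3.45 without Neurod1 and 3.59 as the median of the genes. The log2 ratio of cuprizone over mock, 3.91, was 1.64 without cuprizone replicate 2, 4.75 without cuprizone replicate 1 and 5.15 without Neurod1, so its size rests on which cuprizone library and which genes are used. As the genes were chosen on these same libraries, nothing is read from its direction. For Barhl1, Barhl2 and En2 counts of 0 to 9 in cuprizone replicate 1 limit the ratios.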
